A study of Homo sapiens with 4 samples.

Results

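Stathmins, GAP43 and the collapsin response mediator proteins (CRMPs) are cytosolic or membrane-attached regulators of the growing neurite, and 10 of their genes are described here after siRNA against LSD1. The genes were STMN1, STMN2, STMN3 and STMN4, GAP43, and DPYSL2, DPYSL3, DPYSL4, DPYSL5 and CRMP1. All probe sets whose platform annotation gave exactly 1 gene symbol, that symbol being 1 of the 10, were kept, which gave 21 of 54675 probe sets and 10 of 19775 named genes. A further 1 probe set of STMN1 carried a second gene's symbol and was not used. The measurements came from SH-SY5Y cells, a human neuroblastoma line with features of sympathetic neurons, that were transfected with siRNA against LSD1 (siLSD1, 2 arrays) or with control siRNA (siControl, 2 arrays). LSD1 is a demethylase of histone lysines, encoded by KDM1A, which works in complexes with CoREST. The submitters' design text describes separate transfections within each group, all in 1 cell line. The title of the second siLSD1 array shortens the target's name to LSD. The sources used here give neither the time after transfection nor the siRNA sequences.

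Stathmins bind tubulin dimers and promote the shrinkage of microtubules, and kinases switch this activity off by phosphorylation. STMN1 is the cytosolic founder of the family and is abundant in dividing cells, whereas STMN2, STMN3 and STMN4 carry a membrane anchor and are mostly neuronal. GAP43 is a palmitoylated growth cone protein that binds calmodulin and is phosphorylated by protein kinase C. The CRMPs, 5 homologous proteins, carry signals from semaphorin 3A to the cytoskeleton, and DPYSL2 (CRMP2) binds tubulin dimers and aids axon growth. In neuroblastoma lines these genes are often followed as signs of neuronal character or of differentiation.

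All signals below are log2 values after quantile normalization, and all differences are siLSD1 relative to siControl on the log2 scale. Groups were compared with limma's moderated test, fitted to the 32768 probe sets whose mean reached the 40th percentile of 3.26 and adjusted over all of them by the Benjamini-Hochberg method. The threshold was an adjusted p of 0.05. KDM1A, the target of the siRNA, had signals of 8.40 and 8.54 on the siLSD1 arrays, against 9.79 and 9.78 on the siControl arrays, a difference of -1.32 (95% interval from -1.70 to -0.94, unadjusted p = 6.23e-05, adjusted p = 0.9862 in limma). Its groups did not overlap and its siLSD1 level was 40.04% of the siControl level, yet even the target did not pass the adjusted threshold. Limma called 0 probe sets in the whole table, a share of 0%, while 3.45% had an unadjusted p under 0.05. The 95% interval of a difference had a median half-width of 0.78 over all probe sets tested, or 1.72-fold, since only 2 arrays stood for each group.

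Some arrays stood apart before any comparison. The array siControl replicate 1 had the lowest mean correlation with the other arrays (0.942, against 0.954 to 0.956 for the others). The array siLSD1 replicate 2 had signals between 10.30 and 10.86 on the 3 control probe sets for 18S ribosomal RNA, whereas siLSD1 replicate 1 and both siControl arrays lay between 5.21 and 6.58 (deposited log2 values). The difference between the 3′ and 5′ probe sets of beta-actin, which grows as RNA is degraded or copied incompletely, was 0.71 and 1.16 on the siLSD1 arrays and 0.70 and 0.54 on the siControl arrays. Of 8 markers of noradrenergic neuroblastoma with a probe set of a single symbol, 7 were above the filter, among them PHOX2A, GATA3, ISL1 and DBH. TH, which encodes the enzyme that starts catecholamine synthesis, was below the filter. The part that array quality played in the differences below was not tested.

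As a set the 10 genes showed small differences. With each gene represented by its probe set of the highest mean, 7 had a higher and 3 a lower siLSD1 mean, beside 51.2% of all tested genes with a higher one. The median difference was 0.13, beside 0.0069 over all 13752 genes tested, and the values ran from -0.11 for GAP43 to 0.75 for DPYSL3. None of the 10 passed the adjusted threshold in limma. Both siLSD1 arrays lay above both siControl arrays for STMN1, STMN4 and DPYSL3 and below them for STMN2, so that 4 of 10 genes had groups that did not overlap. Over all tested genes 32.3% had such groups, 16.9% with siLSD1 above and 15.3% with siLSD1 below. The members' count was near that background. The median difference was 0.034 when siControl replicate 1 and siLSD1 replicate 2 were both left out, a comparison of 1 array with 1 array chosen after the data were seen.

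**Figure D1:**
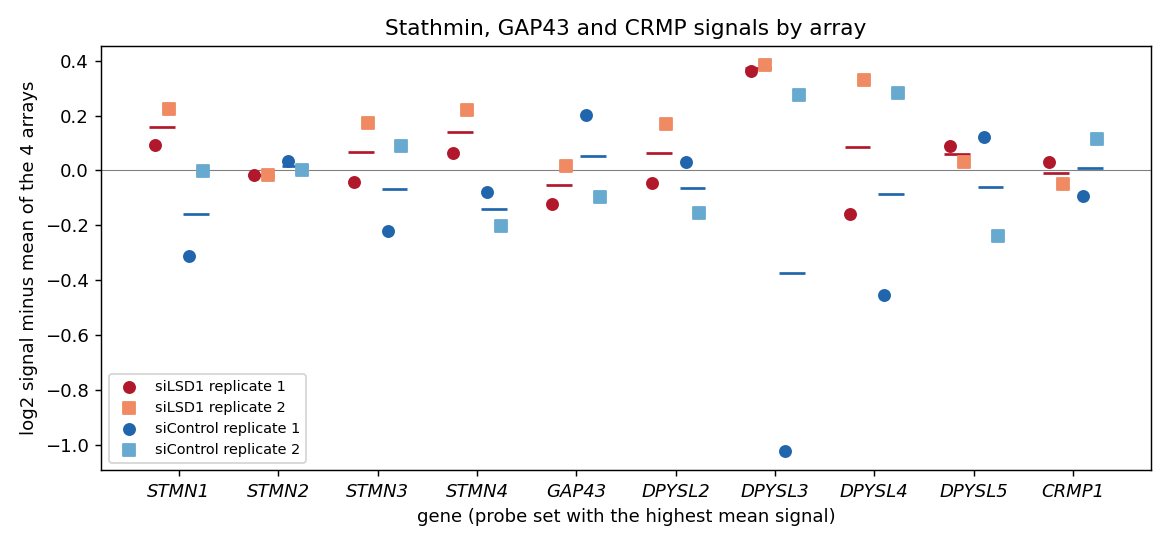
Log2 signal of each gene minus its mean over the 4 arrays, for the probe set with the highest mean signal. Points are single arrays and short lines are group means (n = 2 each). STMN1, STMN4 and DPYSL3 have both siLSD1 points above both siControl points, and the lowest point of DPYSL3 and of DPYSL4 is siControl replicate 1.

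RefSeq windows of 300 bases, from 250 before to 50 after an annotated transcription start (GRCh38.p14), were matched for 7 of the 10 genes, with 14 windows in all. STMN2, STMN4 and DPYSL2 were not matched. Windows of STMN1 and DPYSL3 are shown because their groups did not overlap, for STMN1 the 1 of its 3 windows that held the E-box letters. Both starts of DPYSL3 are given because its probe sets lay on opposite sides of 0, and GAP43 is added as the gene with the lowest mean difference. Sequences run 5′ to 3′ along the gene, and capitals mark CAGGTG or its reverse complement CACCTG, the E-box letters bound by the repressor SNAI1, a known recruiter of LSD1, and GGACAG or CTGTCC, letters from 1 part of the site bound by REST.
STMN1, chr1:25906370-25906669, minus strand: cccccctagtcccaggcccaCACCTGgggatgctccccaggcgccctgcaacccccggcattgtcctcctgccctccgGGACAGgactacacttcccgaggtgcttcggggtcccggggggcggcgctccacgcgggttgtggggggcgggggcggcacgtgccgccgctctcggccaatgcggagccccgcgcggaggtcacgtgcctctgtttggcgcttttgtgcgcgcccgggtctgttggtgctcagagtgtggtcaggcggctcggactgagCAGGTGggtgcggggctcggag
DPYSL3 first start, chr5:147510019-147510318, minus strand: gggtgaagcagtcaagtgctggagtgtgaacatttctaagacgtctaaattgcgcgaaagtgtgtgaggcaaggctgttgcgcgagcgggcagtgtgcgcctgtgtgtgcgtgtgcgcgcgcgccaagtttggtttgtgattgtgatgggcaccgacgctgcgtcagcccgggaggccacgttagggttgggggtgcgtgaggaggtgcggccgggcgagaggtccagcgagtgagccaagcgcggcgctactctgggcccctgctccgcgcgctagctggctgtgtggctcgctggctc
DPYSL3 second start, chr5:147453643-147453942, minus strand: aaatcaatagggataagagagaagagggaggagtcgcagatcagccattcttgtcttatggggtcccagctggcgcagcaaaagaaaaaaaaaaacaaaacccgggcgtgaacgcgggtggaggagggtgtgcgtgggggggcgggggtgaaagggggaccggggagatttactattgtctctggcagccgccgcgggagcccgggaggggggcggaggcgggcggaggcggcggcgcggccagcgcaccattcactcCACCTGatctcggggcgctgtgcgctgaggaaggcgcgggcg
GAP43, chr3:115623260-115623559, plus strand: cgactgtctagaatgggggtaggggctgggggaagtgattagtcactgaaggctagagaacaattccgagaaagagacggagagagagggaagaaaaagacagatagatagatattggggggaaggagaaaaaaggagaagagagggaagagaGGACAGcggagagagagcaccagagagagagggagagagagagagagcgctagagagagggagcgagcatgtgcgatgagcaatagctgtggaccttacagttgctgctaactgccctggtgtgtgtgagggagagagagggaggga
The E-box letters stood in 3 of the 14 windows, those of STMN1, DPYSL3 and STMN3, and in 20.6% of 35116 RefSeq windows of this length. GGACAG or its reverse complement stood in 6 of the 14, from STMN1, DPYSL5, GAP43 and CRMP1, and in 20.5% of all windows. The 2 windows of DPYSL5 overlap and share a match, so that these were 5 distinct sites. The letters of another part of the REST site, TTCAGCACC or GGTGCTGAA, stood in 0 of the 14 and in 0.376% of all windows. The GAP43 window was 52.7% G and C, while the other members' windows ran from 64.3% to 83.7%, beside a median of 58.7% over all windows. Both strands were searched, and a match describes the letters only.

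Among the stathmins, STMN1 had the largest difference of the brightest probe sets. Its probe set 200783_s_at gave 10.31 and 10.44 on the siLSD1 arrays, against 9.90 and 10.21 on the siControl arrays. Both siLSD1 values were above both siControl values, and the difference between the siControl arrays was itself almost as large as that between the groups. The group means were 10.37 ± 0.092 and 10.06 ± 0.22 (SD, n = 2 each), a difference of 0.32 or 1.24-fold with a 95% interval from -0.018 to 0.65 (adjusted p = 0.9862 in limma). The difference was 0.16 without siControl replicate 1 and 0.47 without siControl replicate 2. A dimmer probe set of STMN1, 1552803_a_at, gave 3.80 and 4.43 in siLSD1 cells, against 3.80 and 3.88 in siControl cells. Only siLSD1 replicate 2 set it apart, and its difference of 0.28 turned to -0.037 without that array.

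STMN2, also known as SCG10, is a growth-associated stathmin of neurons whose transcript needs the RNA-binding protein TARDBP for correct splicing. Its probe set 203001_s_at gave 12.08 and 12.08 in siLSD1 cells, against 12.13 and 12.10 in siControl cells, a difference of -0.035 with an interval from -0.17 to 0.096 (adjusted p = 0.9862 in limma). The siLSD1 values lay just below the siControl values, and the interval spanned 0.89-fold to 1.07-fold, the narrowest of the 19 member probe sets tested. The other probe set of STMN2, 203000_at, gave 11.69 and 11.81 in siLSD1 cells, against 11.70 and 11.73 in siControl cells, a difference of 0.029 with an interval from -0.14 to 0.20. Its groups overlapped, so that the 2 probe sets lay on opposite sides of 0 while both intervals held 0.

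STMN3 and STMN4, also called SCLIP and RB3, each had 1 bright and 1 dim probe set, and these disagreed. For STMN3 the bright probe set 222557_at gave 9.55 and 9.77 in siLSD1 cells, against 9.37 and 9.68 in siControl cells. The groups overlapped, and the difference of 0.13 (interval from -0.26 to 0.53) turned to -0.022 without siControl replicate 1. The dim probe set 218207_s_at gave 3.39 and 2.63 in siLSD1 cells, against 4.10 and 3.80 in siControl cells, a difference of -0.94 with an interval from -2.22 to 0.33. Its groups did not overlap, but its siLSD1 mean of 3.01 lay below the filter level of 3.26. The probe set passed the filter only through its siControl mean of 3.95, the group where it was higher. The 1 value below that level was that of siLSD1 replicate 2, the array with the strong ribosomal signal. The difference was -0.56 without that array and -1.32 without siLSD1 replicate 1.

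For STMN4 the bright probe set 221236_s_at gave 7.61 and 7.77 in siLSD1 cells, against 7.47 and 7.35 in siControl cells. The group means were 7.69 ± 0.11 and 7.41 ± 0.086 (SD, n = 2 each), a difference of 0.28 or 1.22-fold with an interval from -0.27 to 0.83 (adjusted p = 0.9862 in limma). All siLSD1 values lay above all siControl values, and the difference stayed between 0.20 and 0.36 when any 1 array was left out. The dim probe set 236812_at gave 3.35 and 4.001 in siLSD1 cells, against 4.97 and 3.86 in siControl cells, and its difference of -0.74 (interval from -1.99 to 0.52) lay on the opposite side with overlapping groups. It was -0.18 with siControl replicate 1 left out and -1.29 with siControl replicate 2 left out. No direction was established for STMN4, whose probe sets disagreed. In bulk samples like these, a change in the share of cells with a transcript cannot be told apart from a change in its level per cell.

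GAP43 had overlapping groups by each of its 3 probe sets. The brightest, 204471_at, gave 9.34 and 9.47 in siLSD1 cells, against 9.66 and 9.36 in siControl cells. The difference of -0.11 had an interval from -0.50 to 0.28, or 0.71-fold to 1.22-fold (adjusted p = 0.9862 in limma). The probe set 216963_s_at gave 7.81 and 7.95 in siLSD1 cells, against 6.46 and 8.20 in siControl cells. Here the siControl arrays lay on either side of the siLSD1 arrays. Its difference of 0.55 became -0.32 when siControl replicate 1 was left out, and 1.42 when siControl replicate 2 was. The dimmest, 216967_at, gave 4.81 and 4.37 in siLSD1 cells, against 4.69 and 3.996 in siControl cells, a difference of 0.24 that turned to -0.10 without siControl replicate 2.

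**Figure D2:**
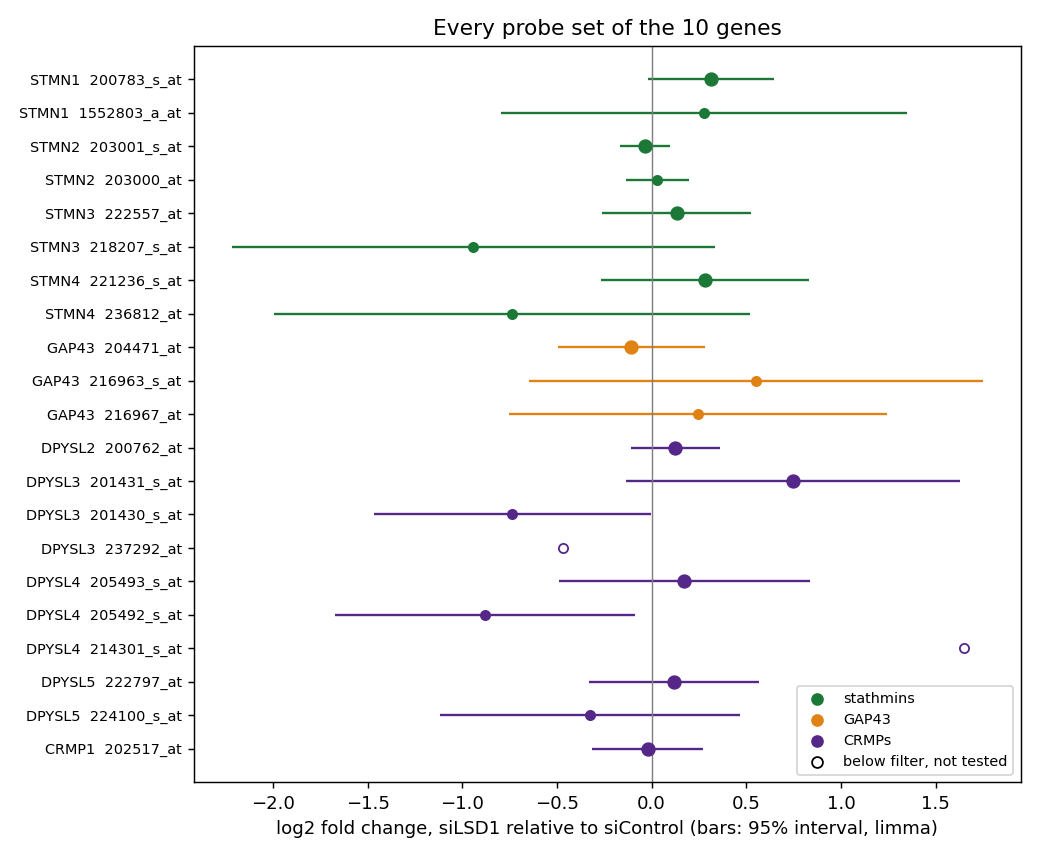
Log2 fold change of every probe set of the 10 genes, siLSD1 relative to siControl, with 95% limma intervals. Large points are the brightest probe set of a gene and open points were below the filter and not tested. The intervals of 17 of the 19 tested probe sets hold 0, and those of 201430_s_at of DPYSL3 and 205492_s_at of DPYSL4 lie below it without adjustment.

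Among the CRMPs, DPYSL2 and CRMP1 were each read by 1 probe set. DPYSL2 gave 11.55 and 11.76 in siLSD1 cells, against 11.62 and 11.44 in siControl cells, a difference of 0.13 with an interval from -0.11 to 0.36 (adjusted p = 0.9862 in limma). The groups overlapped, and the upper limit was 1.28-fold. CRMP1, which mediates responses to semaphorin 3A, gave 10.26 and 10.18 in siLSD1 cells, against 10.14 and 10.35 in siControl cells. Both siLSD1 values lay between the siControl values, and the difference of -0.020 had an interval from -0.31 to 0.27 (adjusted p = 0.9964 in limma).

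DPYSL3 (CRMP4), a family member linked to growth cones and actin bundling, had the largest difference of the 10 genes and the clearest disagreement. Its probe set 201431_s_at gave 9.45 and 9.47 in siLSD1 cells, against 8.06 and 9.36 in siControl cells. The other 3 values lay close together, and siControl replicate 1 was far below. The group means were 9.46 ± 0.015 and 8.71 ± 0.92 (SD, n = 2 each), a difference of 0.75 or 1.68-fold with an interval from -0.14 to 1.63 (adjusted p = 0.9862 in limma). Without siControl replicate 1 the difference was 0.10, and without siControl replicate 2 it was 1.40, so that 1 control array carried most of it. The probe set 201430_s_at gave 6.58 and 5.94 in siLSD1 cells, against 7.07 and 6.92 in siControl cells, with no overlap and in the opposite direction. Its difference of -0.73 had an interval from -1.47 to -0.0036 (unadjusted p = 0.0491, adjusted p = 0.9862 in limma) and was -0.42 without siLSD1 replicate 2. The probe set 237292_at was below the filter on every array, at 0.18 and -0.055 in siLSD1 cells, against 0.46 and 0.59 in siControl cells, and was not tested.

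DPYSL4 (CRMP3) repeated the disagreement. The bright probe set 205493_s_at gave 8.84 and 9.33 in siLSD1 cells, against 8.54 and 9.28 in siControl cells. The groups overlapped, and the difference of 0.17 (interval from -0.49 to 0.84) turned to -0.19 without siControl replicate 1 and to -0.072 without siLSD1 replicate 2. The probe set 205492_s_at gave 6.71 and 5.88 in siLSD1 cells, against 7.22 and 7.13 in siControl cells. Both siLSD1 values were lower, that of siLSD1 replicate 2 by the most. The difference was -0.88 with an interval from -1.67 to -0.089 (unadjusted p = 0.0338, adjusted p = 0.9862 in limma), and it was -0.46 without siLSD1 replicate 2. A further probe set, 214301_s_at, gave 3.27 and 3.86 in siLSD1 cells, against 1.23 and 2.59 in siControl cells. Its mean was below the filter, so that its difference of 1.65 was not tested.

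DPYSL5 (CRMP5), which can antagonize the neurite growth promoted by DPYSL2, had no separation by either probe set. The brighter one, 222797_at, gave 9.02 and 8.96 in siLSD1 cells, against 9.06 and 8.69 in siControl cells. The siLSD1 values lay between the siControl values, with a difference of 0.12 and an interval from -0.33 to 0.57 (adjusted p = 0.9862 in limma). The dimmer one, 224100_s_at, gave 5.54 and 5.88 in siLSD1 cells, against 5.72 and 6.35 in siControl cells, a difference of -0.32 with overlapping groups. This was -0.64 without siControl replicate 1 and -0.011 without siControl replicate 2.

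Probe sets of 1 gene thus often differed in direction. Of the 8 members with at least 2 tested probe sets, 7 had probe sets on both sides of 0, the exception being STMN1. Over all 6931 genes with at least 2 tested probe sets, 62.4% had probe sets on both sides of 0. That share also counts genes with more than 2 tested probe sets, which have more chances to fall on both sides. Among the 8 members only GAP43 had more than 2, so the share is not a like background. Of the 19 tested member probe sets, 11 had a higher and 8 a lower siLSD1 mean, and 7 had groups that did not overlap, beside 32.7% of all probe sets tested. These 7 include 218207_s_at of STMN3, which passed the filter only through its siControl mean. Of the 21 probe sets, 11 carry the suffix _s_at, which marks probes that can match more than 1 transcript. Positions of the probes along the transcripts were not used here.

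**Figure D3:**
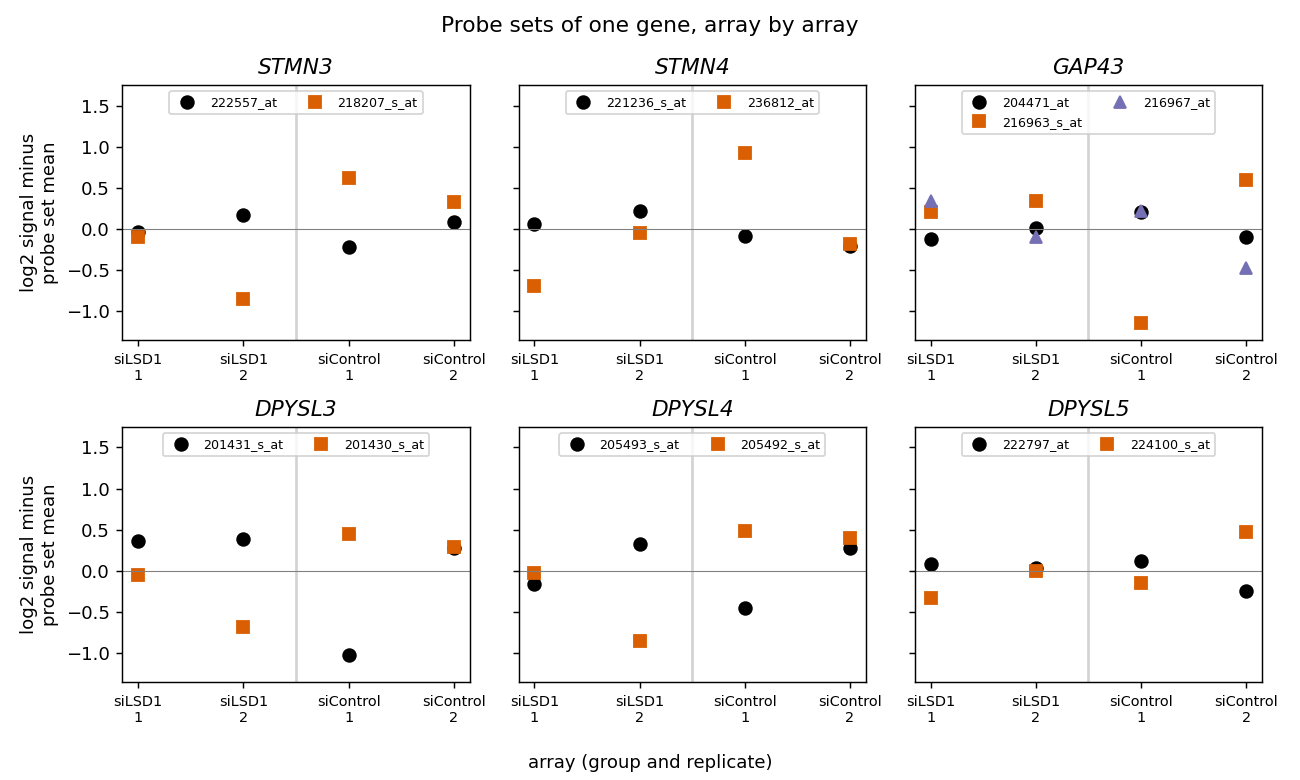
Log2 signal of each tested probe set minus its own mean over the 4 arrays, for 6 genes whose probe sets lay on opposite sides of 0, by array. In STMN3, DPYSL3 and DPYSL4 the second probe set is lowest on siLSD1 replicate 2, while the first is lowest on siControl replicate 1.

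Leaving out arrays, changing the scaling and changing the probe set rule moved most of these values. Over 14 alternatives STMN1 kept a higher siLSD1 mean in all, from 0.16 to 0.47, and so did DPYSL2, from 0.016 to 0.23. Changes of filter, trend or replicate block, or keeping only the brightest probe set of each gene, could not change these differences. The probe set rules could not change that of DPYSL2 either, since it had 1 probe set. The 14 are thus not 14 separate checks. STMN4 and DPYSL3 were lower in 2 alternatives each, both of which changed the probe set. For DPYSL3 both drew on 237292_at, which was below the filter on every array, so these turns rest on a probe set that was not tested. The other 6 genes turned in 2 or 3 alternatives each. None of the 10 genes passed the adjusted threshold in limma under any alternative in which it was tested. DPYSL3 and DPYSL4 were not tested without probe sets ending in _x_at or _s_at. KDM1A, the target, did not pass either, so the lack of calls says little about the members.

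**Figure D4:**
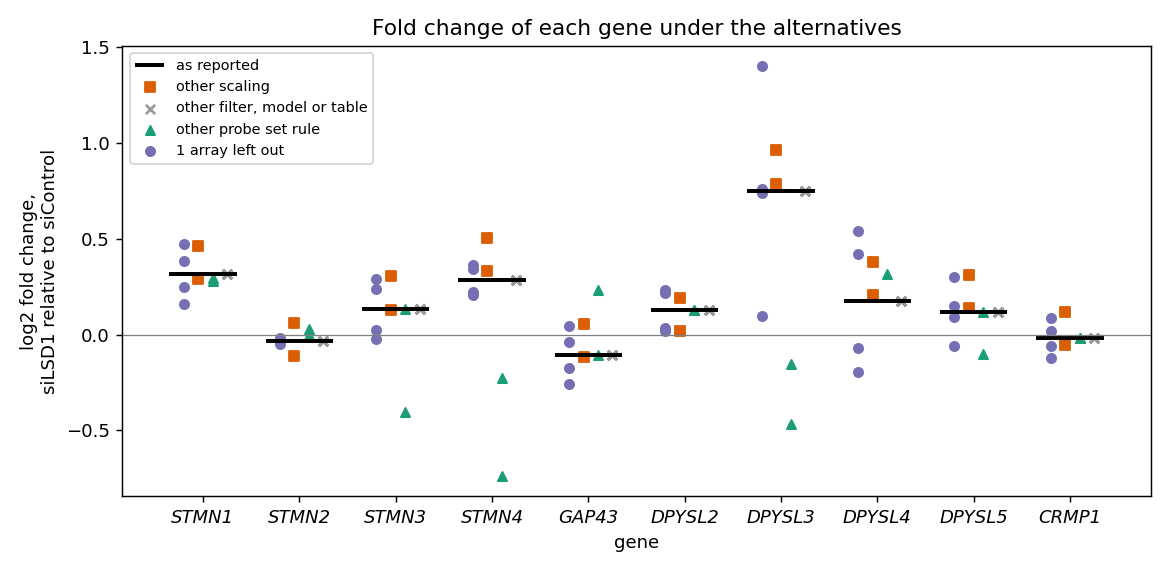
Log2 fold change of each gene, siLSD1 relative to siControl, as reported (black line) and under each alternative. Points of STMN1 and DPYSL2 all lie above 0, and the points of DPYSL3 run from -0.47 to 1.40. The lowest point of DPYSL3 is from 237292_at, a probe set below the filter.

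Genes that act with these proteins were described by 3 lists, for which limma gave no call. Of 21 genes that carry semaphorin 3A signals to the CRMPs, 18 were tested, 11 with a higher and 7 with a lower siLSD1 mean, and their median difference was 0.051. CDK5, a neuronal kinase that phosphorylates CRMPs, gave 9.07 and 9.13 in siLSD1 cells, against 9.37 and 9.49 in siControl cells. These groups did not overlap, with a difference of -0.33 (interval from -0.70 to 0.028). The semaphorin receptor subunit PLXNA1 differed by 0.24 and the kinase ROCK1 by 0.17, both with siLSD1 values above the siControl values. The ligand SEMA3A differed by -0.027 (interval from -0.71 to 0.66). The co-receptor NRP1 gave 3.50 and 3.81 in siLSD1 cells, against 2.58 and 2.54 in siControl cells. Its mean was below the filter, so that its difference of 1.10 was not tested. FES and RND1, the other genes of this list below the filter, had lower siLSD1 means. FES gave 1.39 and 0.88 in siLSD1 cells, against 4.41 and 2.92 in siControl cells, a difference of -2.53. RND1 differed by -0.39 with overlapping groups, and neither was tested.

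Of 13 GAP43-like membrane proteins and GAP43 regulators, 9 were tested, 4 with a higher and 5 with a lower mean, and the median difference was -0.027. BASP1, a growth cone protein related to GAP43 in function, gave 9.55 and 9.42 in siLSD1 cells, against 9.88 and 9.70 in siControl cells, a difference of -0.31 with an interval from -0.65 to 0.038. Both siLSD1 values were below both siControl values, while those of GAP43 itself overlapped. GNAO1, the G protein subunit that GAP43 can stimulate, gave 7.45 and 7.56 in siLSD1 cells, against 8.43 and 8.59 in siControl cells, by its brightest probe set. Its difference of -1.003 had an interval from -1.50 to -0.50 (unadjusted p = 0.00201, adjusted p = 0.9862 in limma). The protein kinase C gene PRKCA had a difference of 0.18. ELAVL4, the RNA-binding protein that stabilizes the GAP43 transcript, differed by -0.083 (interval from -0.30 to 0.14).

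Of 20 kinases, partners and regulators of stathmins, 18 were tested, 12 with a higher and 6 with a lower mean, and the median difference was 0.038. CDK2, a kinase that acts on stathmin, gave 8.30 and 8.42 in siLSD1 cells, against 9.004 and 8.85 in siControl cells, a difference of -0.57 with an interval from -1.01 to -0.13 (unadjusted p = 0.0173, adjusted p = 0.9862 in limma). STAT3, a transcription factor that binds STMN1, differed by -0.43 without overlap, and CDK1, a mitotic kinase of stathmin, by 0.41 with overlap. TARDBP, on which splicing of STMN2 depends, differed by 0.11 (interval from -0.17 to 0.39). In the 3 lists, in the same order, the groups of 5 of 18, 3 of 9 and 3 of 18 tested genes did not overlap, beside the 32.3% of all tested genes.

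**Figure D5:**
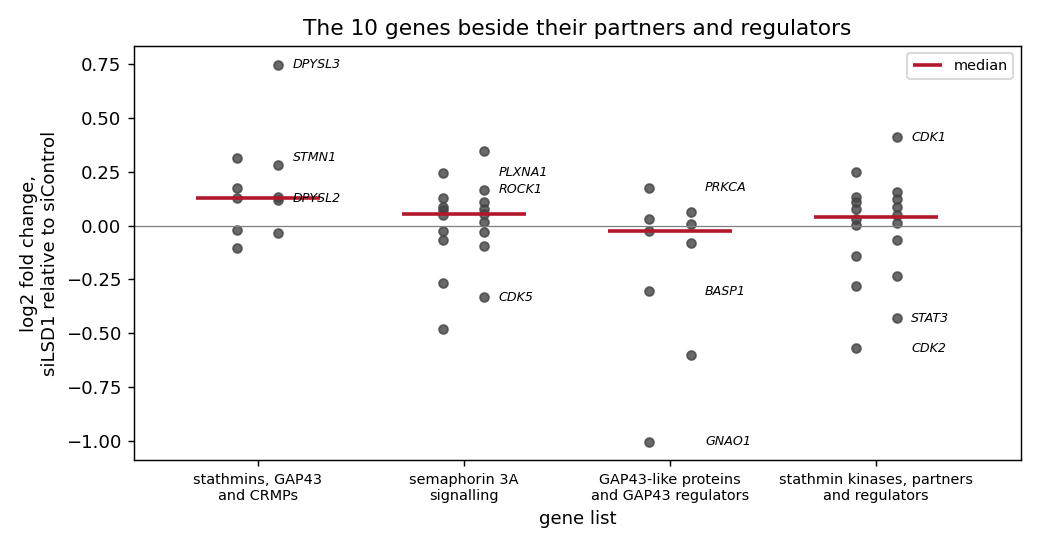
Log2 fold change, siLSD1 relative to siControl, of the 10 genes and of the tested genes of 3 partner lists, 1 point per gene by its brightest probe set, with the median as a red line and the 3 genes of smallest p named. The medians are 0.13, 0.051, -0.027 and 0.038.

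Markers of other states were read beside these values. Of 10 genes of the mesenchymal, substrate-adherent neuroblastoma state, 9 were tested and all 9 had a higher siLSD1 mean, with a median difference of 0.39 and 0 calls in limma. Their summed linear signals were 6888 and 7552 on the siLSD1 arrays, against 5144 and 5769 on the siControl arrays. The groups of 6 of the 9 did not overlap, beside 32.3% of all tested genes. All 6 had siLSD1 above siControl, beside 16.9% of all tested genes in that direction. VIM and TWIST1 made up most of the sum, and TWIST1 was at 11.12 and 11.43 on the siLSD1 arrays, against 9.32 and 11.06 on the siControl arrays. FN1 and NOTCH2 were higher on siControl replicate 1 than on both siLSD1 arrays. PRRX1, also among the 9, had a siLSD1 mean of 3.82 and a siControl mean of 2.76, with overlapping groups. It passed the filter only through siLSD1, so the filter itself favoured its place among the genes with a higher siLSD1 mean. Of the 7 tested noradrenergic markers, 3 had a higher and 4 a lower siLSD1 mean, with a median difference of -0.020, and the groups of 1 did not overlap. Of 5 fibroblast markers, 3 had a higher and 2 a lower mean, and the groups of 1 did not overlap. Of 5 proliferation markers, 1 had a higher and 4 a lower mean, and the groups of 1 did not overlap. Their sums were 8685 and 8654 in siLSD1 cells, against 9230 and 7760 in siControl cells. Of 3 Schwann and glial markers with a probe set of a single symbol, S100B and SOX10 were below the filter. ERBB3 was above it, at 4.39 and 3.11 in siLSD1 cells, against 4.04 and 2.80 in siControl cells, with overlapping groups. Blood cell markers gave 2 tested genes, CD3E and HBB, both with a higher siLSD1 mean, and the groups of CD3E did not overlap. CD3E had a siLSD1 mean of 4.26 and a siControl mean of 2.68, so it passed the filter only through siLSD1. PTPRC and CD14 were below the filter. The part of these states in the values of the 10 genes was not tested.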

How the data were processed

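Log2 signals of 54675 probe sets on 4 Affymetrix arrays were used as deposited. Per the labels' protocols, total RNA was column-purified and biotin-labelled. No source used here names the summary software. The log2 scale of the deposited values was found from the values, since antilogs to base 2, less the lowest and highest 2%, averaged 100.0 on every array. Array medians spanned 0.27, so the arrays were quantile normalized, which would remove an overall difference between groups. Probe sets were named through the 2016 platform annotation, and all 10 symbols matched RefSeq names (GRCh38.p14). After 62 control probe sets were left out, those with a mean below the 40th percentile were not tested. Groups came from the titles. The comparison used limma 3.58.1 (lmFit, eBayes with a trend, two-sided, no replicate term) in R 4.3.3, and simulated data served to test the fit. With 2 arrays a group, the smallest p of an exact permutation test is 0.333. Same-numbered arrays did not deviate together (correlation -0.042). Alternatives covered scaling, filter, probe set rule, trend, replicate block and each array left out. The members, the lists and the tests were chosen with earlier results of these data known. Named were all members, KDM1A, and in each partner list the 3 tested genes of smallest p. NRP1, SEMA3A, ELAVL4 and TARDBP were added for their roles after their values were seen. FES, RND1 and PRKCB were named for where they lay relative to the filter, also after their values were seen.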

Additional observations from a re-analysis of the deposited data

How the results depend on the processing

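With 2 arrays a group the intervals were wide, more so for several dim probe sets than for bright ones, and the values table gives no detection call, so dim probe sets have only the filter as a limit. Limma called 0 probe sets with all arrays (1129 at an unadjusted p under 0.05) and in every alternative but 1. Leaving out each array gave 0 to 1 calls, the 1 being RARS1 (adjusted p = 0.01519) without siControl replicate 2. That fit takes its spread from the siLSD1 arrays and the other genes and assumes that the lone siControl array varies alike. RARS1 was at 10.88 and 10.88 on the siLSD1 arrays, against 7.30 on siControl replicate 1 and 10.82 on the array left out, so that the call rests on 1 control array. The replicate block also gave 0 calls (1435 at an unadjusted p under 0.05), and changed no difference. Median centring shifted the median of all probe sets by 0.15, and with it the members' median to 0.31, the count of genes apart to 7, STMN2 to 0.059, GAP43 to 0.054 and CRMP1 to 0.12, each of these 3 still below that shift. Under the deposited scaling 203000_at of STMN2 was at -0.081. With the mean of all probe sets of a gene, 4 members were higher, the median was -0.011, and the values were -0.40 for STMN3, -0.23 for STMN4, 0.23 for GAP43, -0.15 for DPYSL3 and -0.10 for DPYSL5. Without probe sets ending in _x_at or _s_at the median was 0.029. The values were 0.029 for STMN2, -0.74 for STMN4 and -0.47 for DPYSL3, from other probe sets. That of DPYSL3 was 237292_at, below the filter, by which DPYSL3 was the 1 gene apart. DPYSL4 had no probe set left, nor had KDM1A. The mean of all probe sets of DPYSL3 also included 237292_at. That of DPYSL4, at 0.31, included 214301_s_at, likewise below the filter. With 1 array left out at a time, the members' median ran from 0.023 to 0.24 and the count of genes apart from 5 to 9, which is larger because fewer arrays have to separate. The share of all genes with groups apart is not given for the alternatives. Their counts of genes apart therefore have no background here and are not a result about the members. The ranges were -0.022 to 0.29 for STMN3, -0.26 to 0.044 for GAP43, -0.19 to 0.54 for DPYSL4, -0.061 to 0.30 for DPYSL5 and -0.12 to 0.083 for CRMP1. They were -0.037 to 0.59 for 1552803_a_at of STMN1, -0.030 to 0.089 for 203000_at of STMN2, -0.32 to 1.42 for 216963_s_at and -0.10 to 0.59 for 216967_at of GAP43. Without both siControl replicate 1 and siLSD1 replicate 2, added after seeing the data, 5 members were higher and the median was 0.034. Where a value turned or moved, the cause was not tested.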
